A study of Mus musculus with 8 samples.

Results

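Rod outer segment and light response genes were examined in single-cell RNA sequencing of dissociated mouse retina, across 7 genes of the 1802 listed in the authors' deposited table. The genes are Gnat1, Gngt1, Pdc, Sag and Rcvrn, whose proteins carry or regulate the light signal (signalling genes), and Prph2 and Rp1, whose proteins build the outer segment (structural genes). They were chosen from their log difference between the genotypes, since all 7 lie among the 12 lowest values listed, so that difference, its direction and its p-value are given as a description and support nothing. All 7 were found in the table, each in 1 row. The study holds 3 control libraries, titled WT, and 5 libraries of genotype ABCA1KO, titled KO, all from retinal tissue digested with papain and loaded into droplets, with reads from the 3′ end of transcripts. ABCA1 is a membrane transporter that exports cholesterol and phospholipid. The labels give neither strain, age nor allele, and name no Cre driver. They also do not say which cells lack the gene or whether each library was a separate animal.

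Rods are the photoreceptors of dim light and the most numerous cells of the mouse retina. Their outer segment is a modified cilium packed with discs, in which the light-activated visual pigment switches on the G protein transducin, transducin switches on a phosphodiesterase, and the fall in cyclic GMP closes a cation channel. Arrestin, recoverin and phosducin tune or end that response, while peripherin 2 shapes the disc rims and RP1 organises the microtubules along which discs are stacked.

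All values below compare cells pooled over the libraries of each genotype. The log difference (KO minus WT, read as a natural log) appears to come from batch-integrated values, so it is not a fold change of expression. A share is the percentage of cells with a value above 0 on that scale, which is not the detection of a transcript. The table gives no value per library, no error, no number of cells and no depth, so no difference can be set against the spread between libraries. In cells pooled over a whole tissue, fewer rods and less RNA per rod cannot be told apart. Abca1 itself was listed as higher in KO (log difference 0.0294, share 48.7% against 30.5% in WT) by the authors' deposited table, so these values do not check the genotype labels.

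The genes lie on 5 chromosomes, and all 7 are annotated as protein coding (GENCODE M21, GRCm38). On chromosome 1 lie Rp1 (minus strand, 3999557 to 4409241), Sag (plus strand, 87803680 to 87845158) and Pdc (plus strand, 150319417 to 150333906). Gngt1 lies on chromosome 6 (plus strand, 3993792 to 3997436) and Gnat1 on chromosome 9 (minus strand, 107674474 to 107679712). Rcvrn lies on chromosome 11 (plus strand, 67695326 to 67703333) and Prph2 on chromosome 17 (plus strand, 46910459 to 46924933). The 3 genes of chromosome 1 are therefore far apart and form no cluster.

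Promoter windows from 250 bases before to 50 bases after the RefSeq start (GRCm38.p6) were found for 4 of the 7 genes, namely Sag, Gngt1, Pdc and Prph2. They were searched on both strands for TAATCC, the core recognised by the photoreceptor factor CRX, and TGCTGA, part of the element recognised by the rod factor NRL. These letters do not overlap each other. The CRX core was present in 2 of the 4 windows, against 7.06% of 32851 promoter windows, and the NRL core in 1 of the 4, against 19.5%. Sag and Gngt1 are printed because they hold the matches, and Prph2 as the structural gene without either. Capitals mark the matched letters, which read GGATTA where the CRX core is on the other strand.
Sag, chr1:87803430-87803729, plus strand: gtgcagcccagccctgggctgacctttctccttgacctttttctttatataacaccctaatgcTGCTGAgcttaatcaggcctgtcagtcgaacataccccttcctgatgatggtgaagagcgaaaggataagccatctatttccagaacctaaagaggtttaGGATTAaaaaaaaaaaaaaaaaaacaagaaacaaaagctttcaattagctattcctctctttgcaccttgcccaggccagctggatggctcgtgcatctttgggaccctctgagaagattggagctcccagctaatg
Gngt1, chr6:3993758-3994057, plus strand: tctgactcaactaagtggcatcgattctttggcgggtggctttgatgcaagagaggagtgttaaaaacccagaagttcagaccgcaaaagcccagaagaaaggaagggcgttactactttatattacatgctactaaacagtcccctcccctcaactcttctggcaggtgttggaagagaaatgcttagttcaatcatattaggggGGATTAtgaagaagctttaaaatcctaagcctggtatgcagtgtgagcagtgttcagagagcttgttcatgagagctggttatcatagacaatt
Prph2, chr17:46910228-46910527, plus strand: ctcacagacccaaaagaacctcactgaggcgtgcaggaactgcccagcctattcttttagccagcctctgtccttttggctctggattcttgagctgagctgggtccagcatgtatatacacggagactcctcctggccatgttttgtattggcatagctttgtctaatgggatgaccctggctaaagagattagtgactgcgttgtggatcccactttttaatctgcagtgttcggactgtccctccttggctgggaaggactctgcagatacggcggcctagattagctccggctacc
In Sag the NRL core began 187 bases before the start and the CRX core 87 bases before it. In Gngt1 the CRX core began 44 bases before the RefSeq start. That start and the match both lie inside the GENCODE span given above for Gngt1, which begins further upstream. A match is a description of the letters, and the windows of Pdc and Prph2 without a match say nothing about either factor.

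The signalling genes had log differences from -0.250 to -0.140, with a median of -0.192, in the authors' deposited table. Gngt1, the gamma subunit of rod transducin, was listed at -0.250, with a share of 98.9% in KO and 98.6% in WT, in the authors' deposited table. Pdc encodes phosducin, which binds the transducin beta and gamma subunits, and was listed at -0.236 with shares of 95.7% in KO and 95.0% in WT in the authors' deposited table. These are the lowest values of the 5 signalling genes. Sag, the arrestin that caps the activated visual pigment, followed at -0.192 with shares of 98.8% in KO and 98.7% in WT in the authors' deposited table. Its share was the most nearly equal between genotypes, 0.1 percentage points apart, which is the last decimal the table carries.

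Rcvrn and Gnat1 had the smaller differences of the signalling genes. Rcvrn encodes recoverin, a calcium sensor of the rod response, and was listed at -0.147 with shares of 94.6% in KO and 91.1% in WT in the authors' deposited table. Gnat1, the alpha subunit of rod transducin, was listed at -0.140 with shares of 93.9% in KO and 92.4% in WT in the authors' deposited table. The alpha and gamma subunits of transducin were thus the highest and the lowest of the signalling genes. Gnb1, the beta subunit, which is also made by many other cells, was listed at -0.0209 in the authors' deposited table. The 3 subunits of this heterotrimer therefore differed from each other by up to 0.229 on the natural log scale (beta minus gamma).

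The structural genes lay far apart, Rp1 as the lowest of the 7 and Prph2 next to the highest, Gnat1. Rp1, which encodes a microtubule protein of the outer segment axoneme, was listed at -0.263, with shares of 78.7% in KO and 77.2% in WT in the authors' deposited table. Prph2, the tetraspanin of the disc rim, was listed at -0.142 with shares of 96.7% in KO and 95.7% in WT in the authors' deposited table. Rom1, the partner with which peripherin 2 assembles, was listed at -0.103, with the same WT share of 95.7% and a KO share of 97.0%, in the authors' deposited table. The value of Rom1 equals the median of the 9 non-members with a WT share above 90%, and Rp1 lay well below both genes of the disc rim.

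Signalling and structural genes did not form separate groups. The 5 signalling genes had a median of -0.192, and the 2 structural genes, at -0.142 and -0.263 in the authors' deposited table, enclosed all of them but Gnat1 (-0.140). The difference of the medians (signalling minus structural) was 0.0101, against a range of 0.110 within the signalling genes. That difference changed sign when Gnat1 or Rcvrn was left out (-0.0119 in either case). With only the transducin subunits among the members, Gnat1 and Gngt1 (without Gnb1), in place of the signalling genes it was 0.00765.

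**Figure D1:**
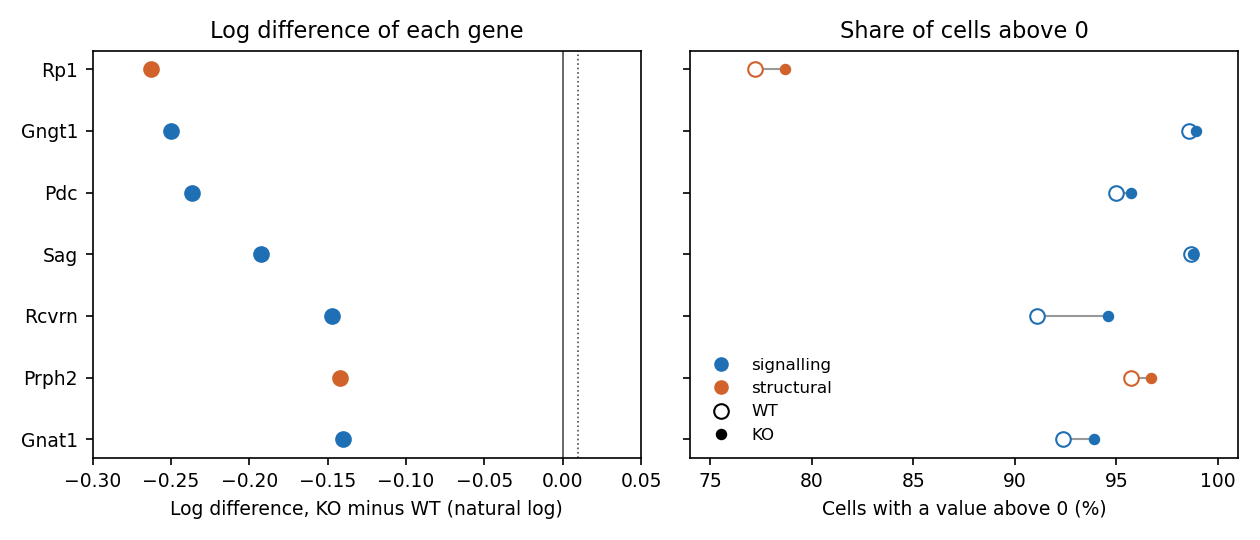
The left panel plots the log difference (KO minus WT, natural log) of each gene, with a solid line at 0 and a dotted line at the median of all listed genes (0.010). The right panel plots the share of cells above 0 in percent, open circles for WT and filled circles for KO, on an axis that starts at 74%: Rp1 stands apart with 77.2% in WT, and every KO circle lies to the right of its WT circle.

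All 7 genes were called lower at an adjusted p under 0.05 by the authors' deposited table, where 24.1% of all 1802 genes were called lower and 69.1% higher. Since the same values chose the genes, nothing is read from that count. The listed adjusted p ran from 0 for Gngt1, below what the file can represent, to 4.42e-89 for Gnat1 in the authors' deposited table. The unit of replication behind these p-values is not stated, and p-values over cells do not measure the spread between libraries. Just inside the 12 lowest values were Prph2 (-0.142) and Gnat1 (-0.140), and just outside was Cnga1 (-0.140), the rod channel subunit, in the authors' deposited table. The boundary thus runs between rod genes of nearly equal value, and Gnat1 and Cnga1 differ only in the fourth decimal. Non-members lying between the members were Ndufa4 (-0.221), Rps21 (-0.215), Cst3 (-0.214) and Rps2 (-0.145), and Tma7 (-0.297) lay below them all, in the authors' deposited table.

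The lower log differences went with slightly larger shares of cells above 0. Every one of the 7 genes had a larger share in KO, by 0.1 (Sag), 0.3 (Gngt1), 0.7 (Pdc), 1.0 (Prph2), 1.5 (Gnat1 and Rp1) and 3.5 (Rcvrn) percentage points in the authors' deposited table. Over all listed genes the median gain was 20.8 points, and 1764 of the 1802 genes had a larger share in KO in the authors' deposited table. The members' gains were thus small beside those of the table, and their direction is the one that nearly all genes share. Because 6 of the 7 had a WT share above 90%, little gain was possible. Read as odds of a value above 0 (KO over WT), the members ranged from 1.08 for Sag and 1.09 for Rp1 to 1.71 for Rcvrn, with a median of 1.27. The median over all listed genes was 2.40 on the same scale, but the 9 other genes with a WT share above 90% had a median of 1.45 and a range from 0.843 to 1.97, which encloses the members.

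Set against the median gain of genes of like WT share, the gain was lowest for Rp1 and highest for Rcvrn. Rp1 had room to gain, with 22.8% of WT cells not above 0, yet 21.3% of KO cells were still not above 0 in the authors' deposited table. Of 31 other genes within 5 percentage points of its WT share, only Tmsb4x (chosen after its values were seen) gained less than Rp1, and the median gain was 8.4 points. Cnga1, with nearly the same WT share (77.3%), reached 81.5% in KO, a gain of 4.2 points in the authors' deposited table. Rcvrn gained more than 8 of 14 other genes of like WT share, whose median gain was 2.65 points. Rp1 and Rcvrn therefore sat on opposite sides of their neighbours in share, while both had negative log differences.

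The median log difference in this table changed sign between WT shares below and above 70%. It was 0.0183 for listed genes with a WT share from 40% to 50% (703 genes), 0.0177 from 50% to 60% (124 genes) and 0.0241 from 60% to 70% (34 genes), the highest of all classes. Genes from 70% to 80% had a median of -0.0381 (29 genes), those from 80% to 90% a median of -0.0467 (20 genes) and those above 90% a median of -0.140 (15 genes). In the class above 90%, which holds 6 members, all 15 genes had negative values. The 9 non-members of that class had a median of -0.103. Besides Tma7 and Cst3, they include the rod gene Rom1 (-0.103), the broadly expressed genes Pkm (-0.116), Fth1 (-0.0812) and Rps29 (-0.0557), and the nuclear RNA Malat1 (-0.0969, not called) by the authors' deposited table. Negative values were therefore general among genes with values above 0 in nearly every cell, rod genes or not.

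**Figure D2:**
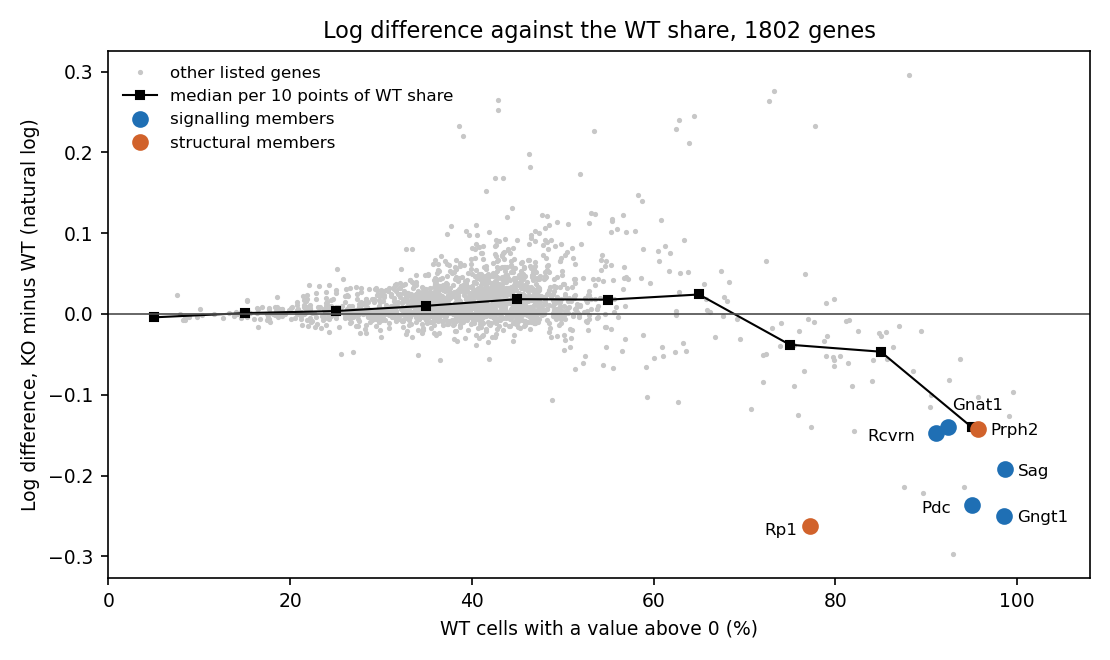
Each grey point is a listed gene, with the share of WT cells above 0 in percent on the x axis and the log difference (natural log) on the y axis. Black squares are medians over all genes per 10 points of WT share and are negative in the 3 classes above 70% (and, at -0.00417, in the lowest class of 7 genes), and the 7 members (blue signalling, orange structural) all lie above 70%.

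Set beside genes of like WT share, all 7 members were still the lower ones, by amounts that differed widely. The comparison took the listed non-member genes whose WT share lay within 5 percentage points and subtracted their median. Rp1 lay at -0.229 from the median of 31 such genes and below every one of them, the lowest being Rps2 at -0.145 in the authors' deposited table. Gngt1 lay at -0.147 from the median of 5 genes and again below all of them. Pdc lay at -0.133 from the median of 9 genes, with only Tma7 below it. These 3 genes stood farthest from their neighbours.

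For the other 4 genes the distance was smaller. Sag lay at -0.0892 from the median of 5 genes, with only Cst3 below it. Rcvrn lay at -0.0562 from the median of 14 genes, 4 of which were lower still. Prph2 lay at -0.0391 from the median of 7 genes, with 2 lower, and Gnat1 at -0.0380 from the median of 12 genes, with 4 lower. These values overlap those of unrelated neighbours such as Ndufa4 and Cst3, and only Rp1 and Gngt1 stood outside the range of genes within 5 points. For Gngt1 (WT share 98.6%) this rests on the width. Within 10 points, Tma7 (-0.297, WT share 93.0%) enters and lies below it. Matched on KO share instead, the distances were -0.106 for Gnat1, -0.113 for Rcvrn and -0.0792 for Prph2, beside -0.0955 for Sag, so the order of these 4 genes depends on the share used. Within 2 points of the WT share, Pdc lay at -0.0778. Few genes share so high a WT share, and the same values chose the members, so these distances are descriptions with no test. On this scale the signalling median was -0.0892, and the structural genes again lay far apart.

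**Figure D3:**
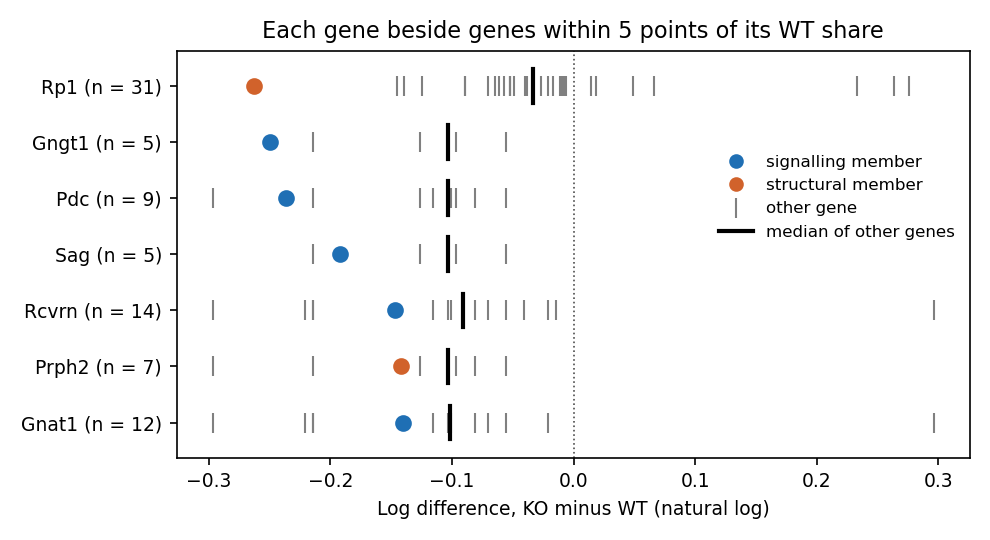
For each member (coloured circle), grey ticks show the log differences (natural log, x axis) of the other listed genes within 5 percentage points of its WT share, with their number in brackets and their median as a black bar. Rp1 and Gngt1 lie below every tick of their row, Pdc and Sag have 1 tick below them, and Gnat1, Prph2 and Rcvrn lie among the ticks.

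Among the 7 members themselves, the log difference had no steady relation to the share. Across the 7 genes Pearson's r of log difference with WT share was 0.298 and Spearman's rank correlation 0.0714, and with KO share 0.388 and -0.0714. Without Rp1, the r with WT share over the other 6 genes was -0.644, so its sign rested on Rp1. With the gain in share, r was 0.443 and the rank correlation 0.288 over the 7 genes, and 0.602 and 0.657 without Rp1. The points are genes measured in the same pooled cells, and they are too few for more than a description.

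Other genes of rod phototransduction went both ways, and the direction followed the WT share. Of 16 further genes of the rod light response looked for, 10 were listed, 5 of them called lower and 4 higher by the authors' deposited table. The list's median was -0.0352, beside 0.010 over all listed genes, of which 24.1% were called lower and 69.1% higher. Those lower included Cnga1 (-0.140), a subunit of the cyclic GMP-gated channel, Slc24a1 (-0.117), the exchanger that removes calcium, Pde6b (-0.0494), a catalytic phosphodiesterase subunit, and Gnb1 (-0.0209) in the authors' deposited table. Higher were Gnb5 (0.0526) and Rgs9bp (0.0310), parts of the complex that switches transducin off, and the guanylate cyclases Gucy2e (0.0462) and Gucy2f (0.000110), which restore cyclic GMP, in the authors' deposited table. The channel subunit Cngb1 was listed at -0.0513 and did not pass (adjusted p = 0.0881) in the authors' deposited table. All 6 genes with negative values had a WT share above 70%, and all 4 called higher had a WT share of at most 61.7%.

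Further genes of outer segment structure, transport and retinoid handling were also split. Of 18 looked for, 11 were listed, with 5 called lower and 4 higher by the authors' deposited table, and their median was -0.0195. Among all 1802 genes, 24.1% were called lower and 69.1% higher. Those lower included Rom1 (-0.103), Rp1l1 (-0.0574), a relative of Rp1, the photoreceptor cadherin Cdhr1 (-0.0195) and Impg2 (-0.00836), a proteoglycan of the matrix around photoreceptors, in the authors' deposited table. Rp1l1 shared the direction of Rp1 at a WT share of 36.5%, less than that of any member. Higher were Rpgrip1 (0.0660), a protein of the connecting cilium, Prom1 (0.0286), a protein of the nascent discs, Impg1 (0.0146) and the retinol dehydrogenase Rdh12 (0.00349) in the authors' deposited table. The retinoid transporter Abca4 (-0.102) and Reep6 (-0.0363) did not pass, each with an adjusted p of 1 in the authors' deposited table.

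Transcription factors that maintain photoreceptor genes were mostly lower. Of 9 looked for, 6 were listed, 5 of them called lower and 0 higher by the authors' deposited table, with a median of -0.0275. For comparison, 24.1% of all listed genes were called lower and 69.1% higher. Nrl, the rod-determining factor, was lowest at -0.0836, with shares of 90.2% in KO and 84.0% in WT in the authors' deposited table. Crx (-0.0293), Esrrb (-0.0287), Otx2 (-0.0264), which bipolar cells also express, and Rax (-0.00483) followed, and Samd11 (0.0574) did not pass (adjusted p = 1), in the authors' deposited table. Over the 3 rod lists, 27 of 43 genes were listed, with 15 called lower and 8 higher by the authors' deposited table. Among the 8 whose WT share was 70% or more, 7 were called lower and 0 higher, whereas the 19 with a smaller share had 8 calls in each direction. Negative values were frequent at that share throughout the table, in 56 of 64 listed genes, the members included.

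**Figure D4:**
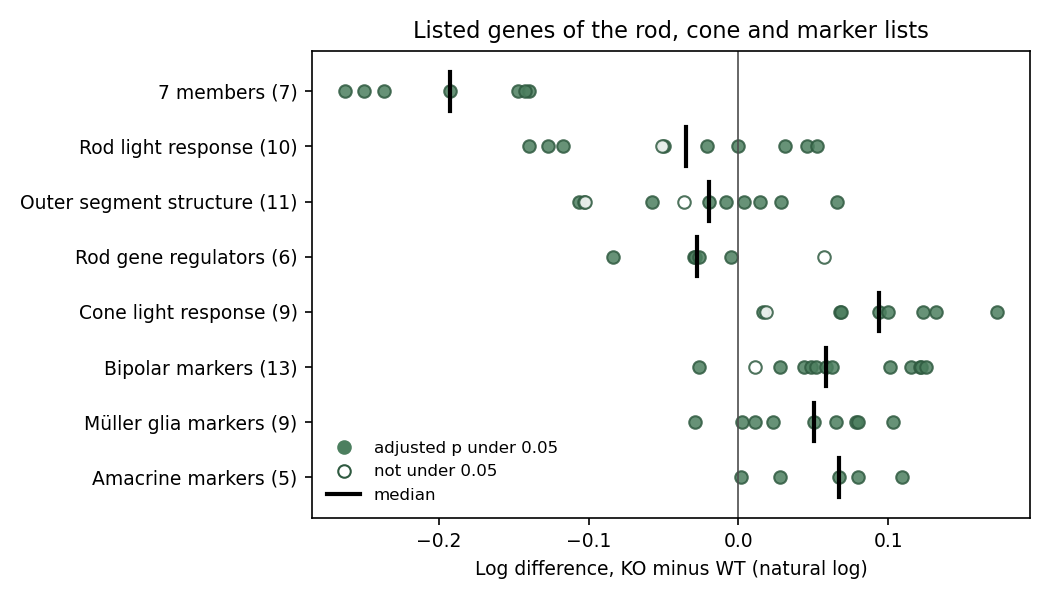
Each circle is a listed gene at its log difference (natural log, x axis), filled where the adjusted p was under 0.05, with black bars for the median of each list and the number of listed genes in brackets. The rod lists straddle 0, while the cone list lies wholly above 0, from 0.0162 to 0.173.

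The cone counterparts of the rod genes lay on the other side of 0. Cones, the photoreceptors of daylight, use their own forms of most of these proteins. Of 12 cone genes looked for, 9 were listed, with 8 called higher and 0 lower by the authors' deposited table, and a median of 0.0940. Over all listed genes 69.1% were called higher, so this direction is common in the table. Arr3, cone arrestin, was listed at 0.173 where Sag stood at -0.192 in the authors' deposited table. Gngt2, the cone transducin gamma subunit, was listed at 0.0996 where Gngt1 stood at -0.250, and Gnat2, the cone alpha subunit, at 0.0678 where Gnat1 stood at -0.140, in the authors' deposited table. Of 8 pairs set up, both genes were listed in 6, and the rod gene was the lower in all 6. The gap (rod minus cone) ran from -0.365 for Sag and Arr3 and -0.349 for Gngt1 and Gngt2 to -0.0656 for Pde6b and Pde6c.

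The cone genes also had much smaller WT shares, so the contrast of rod with cone and the difference in share cannot be told apart. Arr3 had values above 0 in 51.9% of WT cells and 72.2% of KO cells, Gngt2 in 47.4% and 72.9%, and Gnat2 in 43.5% and 67.9% in the authors' deposited table. Cones are a small minority of retinal cells, and shares this large show that a value above 0 does not mark a cell of the type. The other cone genes were the opsins Opn1sw (0.0940) and Opn1mw (0.0685), the transducin subunit Gnb3 (0.124), the phosphodiesterase subunits Pde6h (0.132) and Pde6c (0.0162), and the channel subunit Cngb3 (0.0187, not called) by the authors' deposited table.

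**Figure D5:**
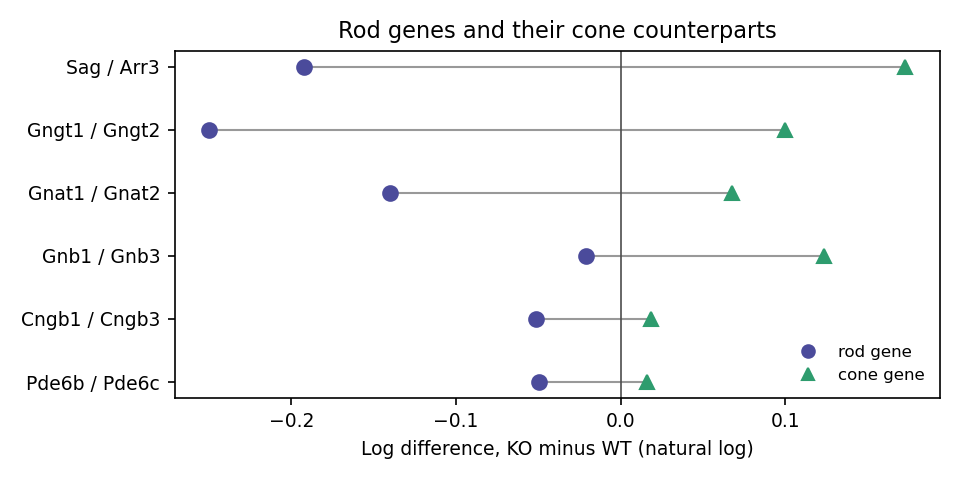
Each row joins a rod gene (circle) to its cone counterpart (triangle) at their log differences (natural log, x axis), ordered by the gap. In all 6 rows the rod gene is below 0 and the cone gene above it, with the widest gap, -0.365, between Sag and Arr3.

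Most markers of bipolar, Müller glia, amacrine and horizontal cells were called higher, as were 69.1% of all listed genes. Of 13 listed bipolar cell markers (14 looked for), 11 were called higher and 1 lower by the authors' deposited table, with a median of 0.0585 and Pcp2 (0.125) and Gng13 (0.122) in front. Of 9 listed Müller glia markers (12 looked for), 8 were called higher and 1 lower, with a median of 0.0503 and with Dbi (0.103) and Vim (0.0801) highest, and all 5 listed amacrine markers were called higher, with a median of 0.0674 and Gad1 (0.109) and Pax6 (0.0797) in front, by the authors' deposited table. By the authors' deposited table, all 5 horizontal cell markers listed were higher calls, including Calb1 (0.0288) and Sept4 (0.0255), with a median of 0.0207. WT shares spanned 33.9% to 56.6% for bipolar, 25.8% to 62.9% for Müller glia, 37.7% to 47.3% for amacrine and 32.7% to 48.4% for horizontal cell markers, below the 77.2% of Rp1. Their part in the members' lower values was not tested.

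Markers of microglia, vessels, ganglion cells and astrocytes were called in both directions, beside 24.1% lower and 69.1% higher over all listed genes. Of 9 listed microglia markers, 5 were called higher and 4 lower, with C1qb (0.0373) among those higher, by the authors' deposited table, and the median was 0.000755, below the 0.010 of all listed genes. Endothelial and pericyte markers had 4 higher and 3 lower calls, with Igfbp7 (-0.0522) and Rgs5 (-0.0507) farthest from 0, in the authors' deposited table, and a median of 0.000901. Of 5 listed ganglion cell markers, 3 were called higher and 2 lower, with Rbpms (0.0249) and Nefh (-0.0240) farthest from 0, by the authors' deposited table. Of 3 listed astrocyte markers, 2 were called higher and 1 lower, with Gja1 at 0.0444 and Aqp4 at -0.0288, by the authors' deposited table. None of these lists held a gene as low as the member nearest to 0, Gnat1. The members were chosen among the lowest values of all listed genes, so nothing is read from that.

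The genes whose pattern came nearest to that of the members were not all rod genes. Likeness was taken as the distance from the members' median point in log difference, KO share and WT share, each divided by its SD over the 1802 genes. Nearest were Cst3 (0.534 SD), which encodes the protease inhibitor cystatin C, Ndufa4 (0.881), a mitochondrial protein, and Rps21 (1.17), a ribosomal protein. Farther off were Rps2 (1.69) and Pkm (1.91), a glycolytic enzyme. Of the members, Sag was the closest to that point (0.366) and Rp1 the farthest (2.52), farther than all of these genes. The measure rests on 3 pooled values per gene and says nothing of shared function or control.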

How the data were processed

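Retinal cells of 3 WT and 5 KO libraries were captured on a droplet platform and sequenced from the 3′ end, per the labels' protocols. Cell Ranger, Seurat 3.1.4, DESeq2 and the build GRCm38 are named in the submitters' processing notes, without their roles. For the test, the cell filters, doublets and integration, the methods are not stated in the sources used here. The log difference is a natural log value of the deposited comparison, by the convention of that Seurat version, since the file header names no base. Shares of cells above 0 are deposited as a fraction and printed here as percent. The deposited p-value and its adjusted form have a quotient of 2000, read as a Bonferroni adjustment over 2000 features. Of these, 1802 are listed, with raw p up to 0.00938, and nothing follows for genes outside that list. A fixed feature set of that size points to integrated values.

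Calls are those of the deposited adjusted p under 0.05. No test was run here, because the deposited comparison holds no values per library. Depth is unknown. Genes of like share lie within 5 percentage points of the WT share, with at least 3 genes per window, a step tested on simulated data. The members and lists were chosen with earlier results of these data known. Genes named are the members, all listed genes of the rod and cone lists, the leading pair of each marker list, the 6 nearest genes and neighbours in rank, and others named for a share class were chosen after their values were seen. Python 3.11.15, pandas 2.3.3 and SciPy 1.17.1 were used. Proteins were not analysed here, and some genes that the rule selects are left out.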

Additional observations from a re-analysis of the deposited data

How the results depend on the processing

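All 7 members were called lower under an adjusted p of 0.01, under a Benjamini-Hochberg adjustment over the listed raw p and when directions were read against the median of all listed genes. Their median log difference was -0.192, and -0.202 after that median was subtracted. It lay between -0.214 and -0.170 when each member was left out in turn. The median distance from genes of like WT share was -0.0892, and -0.0391 within 2 points (5 members, since Gngt1 and Sag had fewer than 3 genes). It was unchanged within 10 points, -0.113 when matched on KO share, -0.0911 on the mean share and -0.0955 without genes of the rod lists. All members with a window lay below their neighbours' median in each of these settings. Because the members were chosen for their low values, neither this nor the unchanged calls add support. The signalling minus structural difference of 0.0101 became 0.00765 with Gnat1 and Gngt1 alone as signalling genes. It was 0.0449 against genes of like share. The difference ranged from -0.0119 to 0.0327 when each signalling gene was left out. Neither structural gene was left out, so that range does not cover its dependence on Prph2 (-0.142) or Rp1 (-0.263). The median gain in share of 1.0 point was 0.236 as a log odds difference and -0.6 points against genes of like share, a change of sign. The correlation with WT share (0.298) was 0.388 with KO share and 0.443 with the gain, and ranged from -0.644 to 0.541 when each member was left out. The 15 lower and 8 higher calls of the rod lists became 17 and 6 against the median of all genes, and the 8 cone calls stayed at 8. Leaving out a library could not be run. No paired analysis was possible because the deposited comparison pools all libraries of a genotype. Without counts or depths, a small difference in share cannot be given an interval.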
